A study of Mus musculus with 6 samples.

Results

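Numbered Zfp genes encode proteins built around zinc fingers, and they were followed here in bone marrow RNA from mice with and without Gab2. The table holds 354 symbols made of Zfp, a number and at most 1 further letter. The 259 of them with a mean of at least 1 FPKM (fragment abundance per unit of transcript length and sequencing depth) over the 6 libraries were taken, among 9916 genes that reached that mean. The members were thus chosen by their measured mean FPKM, so their level is a description. Just inside the limit were Zfp69, Zfp658 and Zfp623 with means of 1.02, 1.03 and 1.07 FPKM, and just outside were Zfp473, Zfp3 and Zfp865 with 0.989, 0.992 and 0.9995 FPKM. Of the 95 symbols left out, 47 had a mean under 0.1 FPKM and 16 were listed at 0 in all 6 libraries. Because the mean runs over both groups, 6 members were below 1 FPKM on average in the WT libraries and 2 in the NULL libraries, and 6 excluded genes reached 1 FPKM in 1 of the groups (Zfp882, Zfp395, Zfp248, Zfp473, Zfp3 and Zfp865).

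The study compared 3 libraries of Gab2 +/+ bone marrow (WT A, B and C) with 3 of Gab2 -/- bone marrow (NULL A, B and C), and its title concerns transformation by BCR-ABL1. GAB2 is a scaffold protein that links receptor and BCR-ABL1 signalling to downstream pathways. Strain, age, sex, treatment, the deleted part of Gab2 and the number of animals behind each library are not given in the labels. The p-values below therefore measure only the spread between these libraries, which may be technical.

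Most proteins of this family carry an array of C2H2 fingers, each of which grips a few bases of DNA, so that the order of the fingers sets the sequence that is bound. Many also carry a KRAB box, which binds the scaffold TRIM28 and through it the histone methyltransferase SETDB1, HP1 proteins and deacetylases, and this assembly is best known for silencing retroelements and imprinted loci. KRAB genes multiplied by local duplication and lie in runs of relatives on the chromosomes. Other members have no part in this and act in RNA decay, ribosome assembly, the spindle or as ordinary promoter-binding factors.

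The deleted gene was checked first: Gab2 reached 3.33, 3.10 and 2.43 FPKM in the WT libraries (always in the order A, B, C) but 0.123, 0.145 and 0.203 FPKM in the NULL libraries. The groups did not overlap (exact permutation test, two-sided p = 0.1, the smallest that 3 against 3 allows). FPKM carry no read counts, and the step between low values put the libraries at roughly 18.0 to 68.4 M fragments. The summed FPKM of the 12 B lineage markers ran from 3075 to 3281 in WT libraries and from 4162 to 4228 in NULL libraries, while the 8 granulocyte, 8 erythroid, 5 T cell and 5 megakaryocyte markers found in the table each summed to 1.34 FPKM or less in every library, so the defining markers of these marrow cells were at or near 0 in tissue labelled bone marrow. The 7 markers of monocytes and macrophages found summed to 1.53 to 2.12 FPKM in WT and 3.72 to 4.92 in NULL. Lyz2 made up most of the rise, and Cd14 was at 0 in all libraries. The 7 markers of stroma and endothelium summed to 10.6 to 11.6 FPKM and 24.7 to 25.6 FPKM, nearly all of it Pecam1, while Col1a1 and Col1a2 were at 0 and Cxcl12, Lepr, Cdh5 and Kdr were at 0.182 FPKM or less in every library. The part of these differences in the results below was not tested. In such bulk RNA, fewer cells of a type and less RNA per cell cannot be told apart.

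In NULL, 71 of the 259 members were called higher and 46 lower by limma on log2(FPKM + 1), at an adjusted p under 0.05, and 142 were not called. Members called made up 45.2%, against 65.3% of all 9916 genes tested. Higher calls were 27.4% of the members against 23.3% of all genes, and lower calls 17.8% against 42.0%. The median log2 change was 0.03 over the members and −0.13 over all genes tested. Changes of at least 1 on the log2 scale with a call were found for 6 members, which is 2.32% of them, against 9.93% of all genes. That count was 13 (5.02%, against 13.6% of all genes) with a pseudocount of 0.1, 10 (3.86%, against 8.86%) with a common total, 14 (5.41%, against 9.49%) with a common total without small RNA genes, and 4 without WT C. In all 117 called members the 3 WT values and the 3 NULL values did not overlap, as in 6411 of all 6479 called genes.

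Since Zfp genes are weakly expressed, with a median of 5.19 FPKM against 9.94 FPKM over all genes tested, they were set beside the 5685 other genes with a mean between 1.75 and 16.6 FPKM, the 10th and 90th percentiles of the members. Among those, 26.5% were called higher and 34.6% lower, with a median log2 change of −0.05. Bands of abundance were read in the same way. Lower calls made up 11.4% of members and 19.5% of other genes at 1 to 2 FPKM, 13.8% and 24.7% at 2 to 4 FPKM, 15.2% and 32.4% at 4 to 8 FPKM, 25.4% and 42.8% at 8 to 16 FPKM, and 25% and 61.2% at 16 FPKM or more. Higher calls made up 34.3% of members and 36.3% of other genes at 1 to 2 FPKM, 37.9% and 33.3% at 2 to 4 FPKM, 26.6% and 26.9% at 4 to 8 FPKM, 13.6% and 21.9% at 8 to 16 FPKM, and 28.6% and 14.8% at 16 FPKM or more. The median standard error of the log2 change was 0.08 for members and 0.09 for all genes tested.

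**Figure D1:**
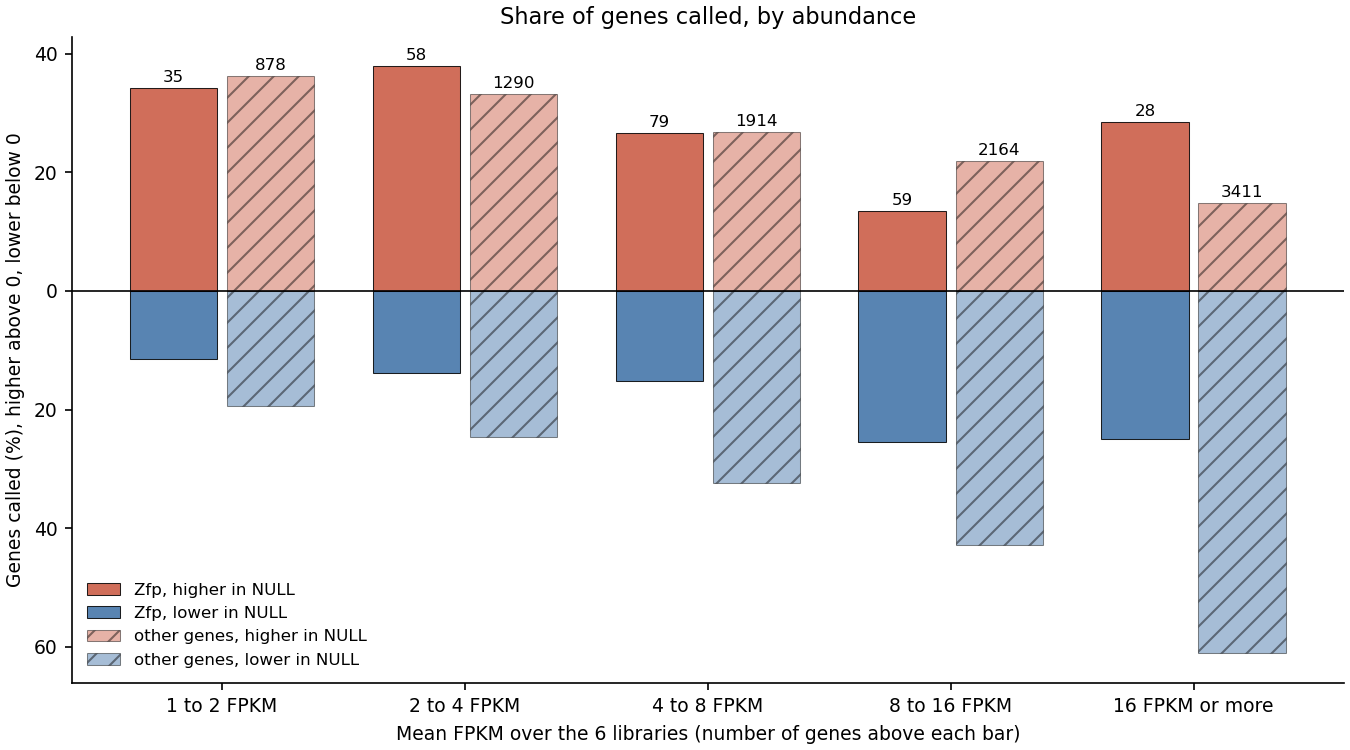
Share of genes called by limma (y axis, percent, higher in NULL above 0 and lower in NULL below 0) in 5 bands of mean FPKM (x axis), for Zfp genes (plain bars) and all other genes tested (hatched bars), with the number of genes above each bar. Lower calls were a smaller share of the Zfp genes than of the other genes in every band, from 11.4% against 19.5% in the lowest band to 25% against 61.2% in the highest.

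How the libraries are scaled moved the balance. Median-of-ratios factors of the deposited values ran from 1.04 to 1.07 over the WT libraries and from 0.928 to 0.960 over the NULL libraries, and small RNA genes held 6.01% to 31.4% of the summed FPKM. The median log2 change of all genes moved from −0.13 to 0.01 after median-of-ratios rescaling, to −0.03 after quantile normalization, to 0.11 with a common total and to 0.20 with a common total without small RNA genes. The median of the members lay above it each time, at 0.15, 0.07, 0.26 and 0.34. Members called higher and lower numbered 103 and 26, 71 and 40, 67 and 6, and 168 and 13 in that order. Higher calls were thus 39.8%, 27.4%, 25.9% and 64.9% of the members, against 31.7%, 28.5%, 20.4% and 45.1% of all genes. Among the genes of similar abundance they were 36.7%, 28.8%, 22.7% and 51.3%. Lower calls were 10.0%, 15.4%, 2.32% and 5.02% of the members, against 25.4%, 31.2%, 7.48% and 14.4% of the genes of similar abundance. Of all genes, 32.7%, 33.1%, 10.1% and 20.6% were called lower. The smaller share of calls in all did not hold throughout: with a common total without small RNA genes, 69.9% of members and 65.8% of all genes were called. Of the 71 higher members, 53 kept the call under all 4 rescalings and 0 turned sign. Of the 46 lower members, 6 kept it (Zfp951, Zfp318, Zfp239, Zfp808, Zfp704 and Zfp493) and 16 turned sign under at least 1 rescaling, the largest of these being Zfp207.

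**Figure D2:**
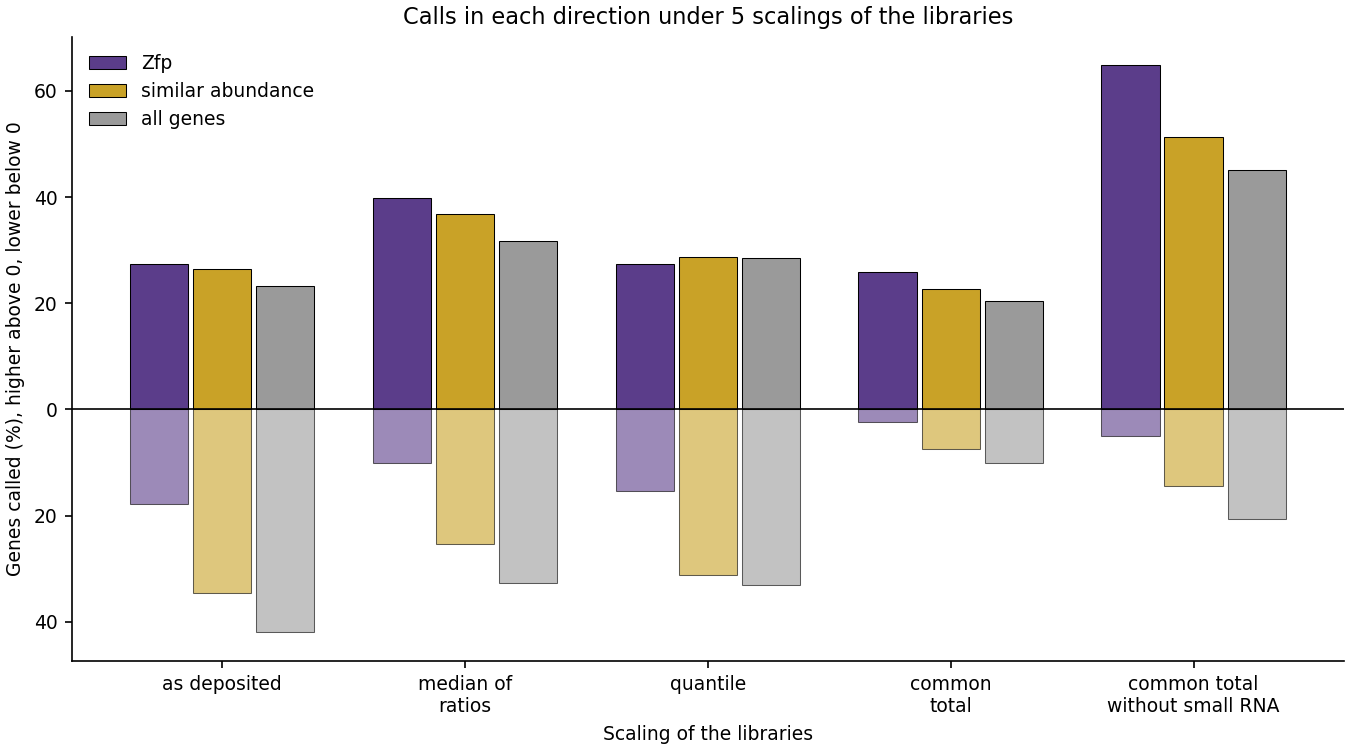
Share of genes called (y axis, percent, higher in NULL above 0 and lower in NULL below 0, paler) with the values as deposited and after 4 rescalings (x axis), for the 259 Zfp genes, the 5685 other genes of similar abundance and all 9916 genes tested. Lower calls were the smallest share among the Zfp genes under each scaling. The higher share ranged from 25.9% to 64.9% of the Zfp genes and from 20.4% to 45.1% of all genes.

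The largest rises stood side by side on chromosome 17. Between Zfp677 and Zfp229, 8 members follow each other over 386 kb (GRCm38), all on the plus strand, all coding for a KRAB box and 12 to 19 fingers, and all 8 were called higher in NULL. They include 4 of the 5 members that rose by at least 1 on the log2 scale, among them Zfp948, which became a member only through its NULL values. These counts depend on the settings: they were 5 of 9 with a pseudocount of 0.1, 4 of 7 after quantile normalization, 4 of 9 with a common total and 5 of 13 with a common total without small RNA genes. This stretch was singled out after its values were seen, so it carries no test beyond the single genes, and 23.3% of all genes were called higher. Whether the groups share a strain background is not given in the labels, so for this stretch the loss of Gab2 and a difference in background cannot be told apart.

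Zfp52 (chr17:21535539-21562601), the member with the largest rise, went from 5.63, 5.93 and 3.20 FPKM in the WT libraries to 14.3, 18.2 and 16.6 FPKM in the NULL libraries. The lowest NULL library was well above the highest WT library, and the log2 change was 1.58 (SE 0.19, limma adjusted p = 0.000237). Zfp948 (chr17:21567008-21588699) was at 0.958, 1.16 and 0.649 FPKM in WT, and at 3.03, 3.73 and 3.83 FPKM in NULL. It is among the 6 members with a WT mean below 1 FPKM. It thus passed the limit only through the NULL libraries, where it was high, and its place among the members is tied to its rise. Its mean was 3.82-fold higher in NULL, with a log2 change of 1.24 (SE 0.12, limma adjusted p = 9.47e-05).

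Zfp53 (chr17:21488998-21510473) was the most abundant of the 8, at 15.1, 15.4 and 10.7 FPKM in WT and 24.4, 31.1 and 31.1 FPKM in NULL, and rose by 1.03 on the log2 scale (SE 0.15, limma adjusted p = 0.000636). Zfp760 (chr17:21707741-21725636) was at 4.01, 3.84 and 3.00 FPKM in WT and 8.20, 8.79 and 9.22 FPKM in NULL, a rise of 1.08 (SE 0.10, limma adjusted p = 7.31e-05). In both, every NULL library exceeded every WT library.

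The other 4 rose less. Zfp229 was at 2.06, 2.21 and 1.78 FPKM in WT and 3.81, 4.003 and 4.80 in NULL (log2 change 0.79, SE 0.10), and Zfp54 at 4.32, 4.14 and 3.40 and 5.81, 6.42 and 6.76 (0.57, SE 0.09). Zfp677 was at 2.09, 1.87 and 1.69 FPKM in WT and 2.69, 3.33 and 3.46 in NULL (0.53, SE 0.10), and Zfp51 at 9.16, 8.61 and 7.70 and 10.5, 11.2 and 11.997 (0.37, SE 0.08). Their limma adjusted p ranged from 0.000274 for Zfp229 to 0.00539 for Zfp51. All 8 kept the call under the 4 rescalings and with each library left out in turn, Zfp51 with the largest adjusted p of 0.0375. None shares an exact 100-base window of its longest transcript with another gene, so exact reads of that length from it could be told apart. Windows that differ by a few letters were not checked.

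The lowest library of each group was the same along this stretch, while the order of the others varied. WT C was the lowest WT library in 8 of the 8 genes, against 122 of all 259 members, and NULL A the lowest NULL library in 8 of 8, against 150 of 259. Without WT C the log2 change of Zfp52 was 1.35, while Zfp53 (0.87) and Zfp760 (0.98) fell short of 1, which left 2 of the 8 among 3 members with a called rise of at least 1. Without NULL B or NULL C, Zfp53 was at 0.97 and 3 of the 8 were among 4 such members.

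Genes between and beside the 8 were read as well. Between Zfp948 and Zfp760 the 2 further tested genes were also higher. The protein-coding 3110052M02Rik was at 6.76, 7.74 and 6.40 FPKM in WT and 18.5, 23.3 and 21.8 FPKM in NULL (log2 change 1.48, SE 0.10, limma adjusted p = 2.93e-05), and the processed pseudogene Gm10509 rose by 0.49 (SE 0.11). On the near side Zfp160, whose start lies at −375 kb from that of Zfp677, changed by 0.04 (SE 0.08) and was not called, and Ppp2r1a before it was lower (−0.30, SE 0.07, limma adjusted p = 0.00814). On the far side Zfp820 (−0.11, SE 0.08) and Zfp942 (−0.03, SE 0.11) were not called, and 2210404O09Rik between them was lower (−0.32, SE 0.11). Further on, Zfp943 was higher by 0.24 (SE 0.09), Zfp947 and Gm4944 lower (−0.35, SE 0.11 and −0.48, SE 0.08), and Zfp944, Zfp758 and Zfp946 were not called.

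**Figure D3:**
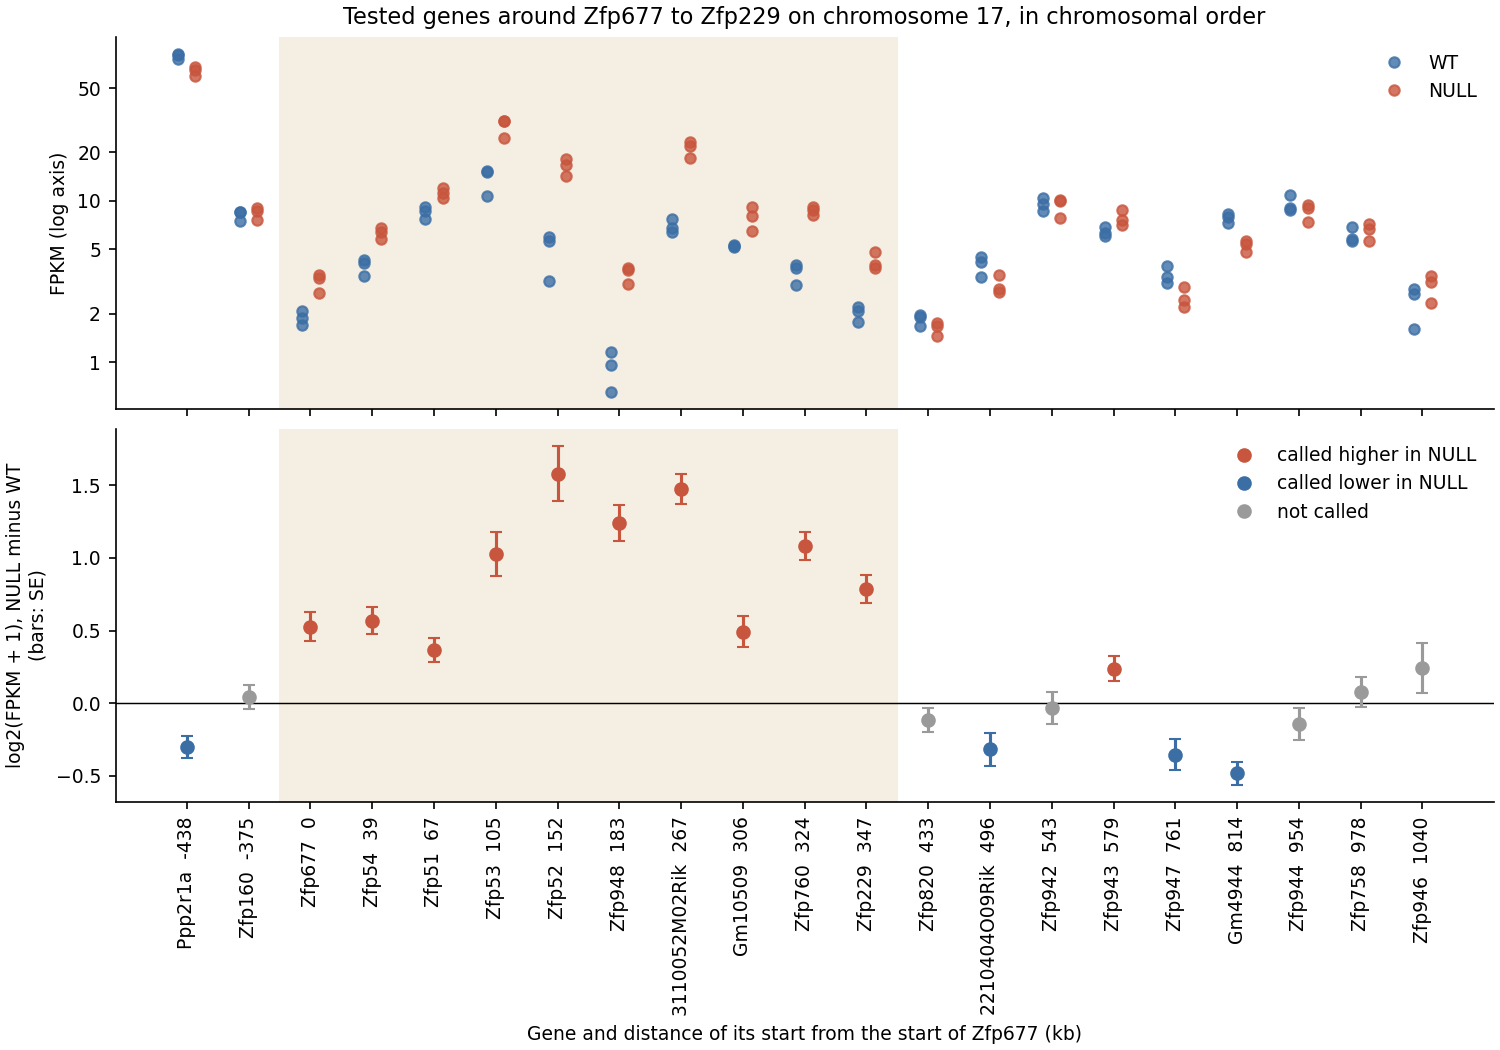
Tested genes on chromosome 17 in order, each with the distance of its start from that of Zfp677 in kb (x axis). The upper panel shows FPKM in each library (log axis, WT blue, NULL red), the lower panel the log2 change with its standard error, and the shaded part runs from Zfp677 to Zfp229, where all 10 tested genes were higher in NULL (0.37 to 1.58), while the genes outside lie between −0.48 and 0.24.

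Since these neighbours rose together, their promoters are printed to show what they share. The 150 bases before the RefSeq gene start (GRCm38.p6, plus strand) were found for 7 of the 9 genes searched, the 8 Zfp genes and 3110052M02Rik. They lie at chr17:21383598-21383747 for Zfp677, chr17:21423077-21423226 for Zfp54, chr17:21488838-21488987 for Zfp53, chr17:21535389-21535538 for Zfp52, chr17:21566828-21566977 for Zfp948, chr17:21707591-21707740 for Zfp760, chr17:21733574-21733723 for Zfp229. Capitals mark every run of 8 bases that also occurs in at least 2 of the other windows.
Zfp677: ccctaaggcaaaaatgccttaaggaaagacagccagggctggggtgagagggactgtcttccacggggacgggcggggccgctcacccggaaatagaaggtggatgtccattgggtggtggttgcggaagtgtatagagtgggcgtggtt
Zfp54: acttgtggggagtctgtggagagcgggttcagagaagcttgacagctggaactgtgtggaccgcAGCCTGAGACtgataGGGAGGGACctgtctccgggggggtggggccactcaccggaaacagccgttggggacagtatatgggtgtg
Zfp53: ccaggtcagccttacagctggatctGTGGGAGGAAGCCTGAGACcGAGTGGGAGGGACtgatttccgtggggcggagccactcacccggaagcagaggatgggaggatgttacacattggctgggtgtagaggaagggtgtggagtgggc
Zfp52: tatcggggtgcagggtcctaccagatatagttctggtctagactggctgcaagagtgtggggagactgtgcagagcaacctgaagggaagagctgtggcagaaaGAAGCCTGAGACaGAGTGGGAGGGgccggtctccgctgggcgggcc
Zfp948: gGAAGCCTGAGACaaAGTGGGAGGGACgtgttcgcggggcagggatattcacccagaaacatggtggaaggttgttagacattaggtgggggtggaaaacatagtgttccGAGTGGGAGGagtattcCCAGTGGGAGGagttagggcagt
Zfp760: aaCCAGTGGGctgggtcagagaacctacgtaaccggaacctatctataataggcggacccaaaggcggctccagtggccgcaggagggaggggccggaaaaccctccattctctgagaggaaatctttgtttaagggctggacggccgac
Zfp229: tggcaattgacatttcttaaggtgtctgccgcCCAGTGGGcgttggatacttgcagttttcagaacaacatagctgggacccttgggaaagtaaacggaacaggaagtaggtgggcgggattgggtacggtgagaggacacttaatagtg

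Zfp54, Zfp53, Zfp52 and Zfp948 share the letters AGCCTGAG and CCTGAGAC, which overlap in the single stretch AGCCTGAGAC. On either strand they occur in 1.43% and 0.736% of the 27025 promoter windows of this length in the RefSeq table. Both words were picked as the most shared among these same windows, so their sharing follows from the choice. Windows of neighbours outside the stretch were not searched for them one by one. Zfp760 and Zfp229 hold 8 shared bases each and Zfp677 none. The letters CCGGAA, on either strand, stand in 4 of the 7 windows (Zfp677, Zfp54, Zfp53 and Zfp760), in 28.6% of the 217 member windows found and in 9.48% of all windows. A match describes these letters in this window, and Zfp52, Zfp948 and Zfp229 do not hold it. A link between these letters and the rises was not tested.

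Members often lie together elsewhere too. Counting members whose neighbours start within 500 kb, 24 runs of 3 or more hold 145 of the 259, and chromosomes 7, 17 and 13 hold 125 members. Inside runs 44 members were higher and 20 lower (30.3% and 13.8%), outside 27 and 26 (23.7% and 22.8%). Over all genes these shares were 23.3% and 42.0%. The 44 include the 8 neighbours on chromosome 17, which were singled out after their values were seen. Of the 24 runs, 9 held calls in both directions, 9 higher calls and no lower ones, 2 lower calls and no higher ones, and 4 no call. In 1 run every member was called in the same direction. This was on chromosome 8, where Zfp709 rose from 22.6, 20.1 and 20.3 FPKM in WT to 34.8, 39.2 and 41.5 FPKM in NULL (log2 change 0.84, SE 0.08, limma adjusted p = 0.000104). Its neighbour Zfp961 was at 28.1, 30.1 and 22.8 FPKM in WT and 43.9, 49.2 and 51.0 FPKM in NULL (0.82, SE 0.11), and Zfp617 between them rose by 0.46 (SE 0.08). The groups did not overlap in any of the 3. Zfp617 shares 34.2% of its windows with another gene, mostly Gm18180, so its reads may have been split.

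**Figure D4:**
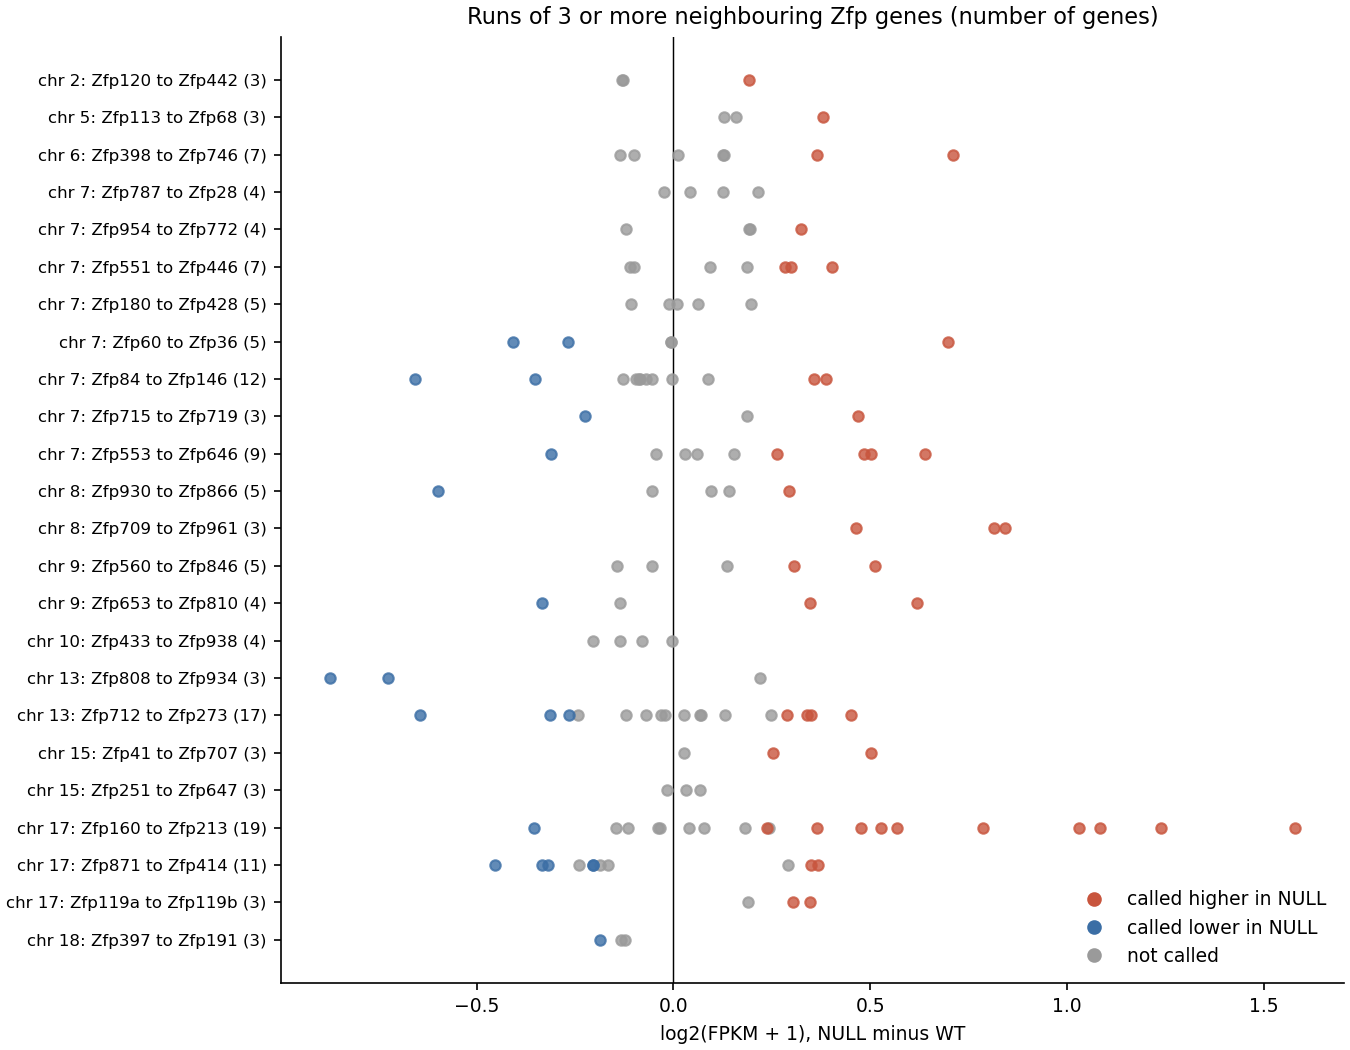
log2 change of each member (x axis) in the 24 runs of 3 or more neighbouring Zfp genes (y axis, number of members in brackets), coloured by call. The run from Zfp160 to Zfp213 on chromosome 17 reaches furthest, to 1.58, and the run from Zfp709 to Zfp961 on chromosome 8 is the 1 in which every member was called higher.

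On chromosome 13 the opposite was seen for a pair. Zfp808 was at 13.9, 12.7 and 10.7 FPKM in WT and 6.08, 5.77 and 7.13 FPKM in NULL, a fall by 0.87 on the log2 scale (SE 0.11, limma adjusted p = 0.000274). Zfp934, in the same run, was at 9.01, 7.51 and 6.47 FPKM and then 3.95, 4.14 and 4.55 FPKM, and fell by 0.72 (SE 0.11). They share about 14% of their windows with each other, and Zfp934 lost its call under at least 1 rescaling (adjusted p up to 0.0789). Zfp935 between them, at 99.3% shared windows, was not called (0.22, SE 0.14).

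Away from these 3 runs the largest rise was that of Zfp831 on chromosome 2, at 1.05, 1.37 and 0.879 FPKM in WT and 4.08, 4.11 and 3.84 FPKM in NULL. The groups were far apart relative to their spread, with a log2 change of 1.26 (SE 0.10, limma adjusted p = 4.14e-05). Zfp949, a KRAB gene with 11 fingers, followed with 0.87 (SE 0.07), and then Zfp513 and Zfp358 with 0.78 each (SE 0.09 and 0.08) and Zfp783, in the run from Zfp398 to Zfp746 on chromosome 6, with 0.71 (SE 0.09). These 5 kept their calls under every rescaling and with any 1 library left out.

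The largest fall was that of Zfp951 on chromosome 5, a KRAB gene with 10 fingers. It was at 8.06, 7.23 and 7.71 FPKM in WT and at 1.91, 2.18 and 2.58 FPKM in NULL, a WT mean 3.45-fold above the NULL mean. It fell by 1.43 (SE 0.09, limma adjusted p = 2.40e-05) and by at least 1.13 under each rescaling, and it was the 1 member with a called fall of at least 1. That count depends on the settings. It was 4 with a pseudocount of 0.1, 3 with a pseudocount of 0.5, 2 after quantile normalization and 2 without WT B. Zfp239, a small protein that binds DNA and RNA, was at 5.24, 5.03 and 6.22 FPKM in WT and 2.67, 2.66 and 2.11 FPKM in NULL, and fell by 0.90 (SE 0.10). Zfp704 fell by 0.79 (SE 0.07), Zfp639 by 0.73 (SE 0.07), Zfp940 by 0.66 (SE 0.09), Zfp493 by 0.64 (SE 0.09) and Zfp930 by 0.60 (SE 0.08). Zfp639, Zfp940 and Zfp930 lost the call with a rescaling to a common total, with adjusted p of up to 0.149, 0.111 and 0.264.

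**Figure D5:**
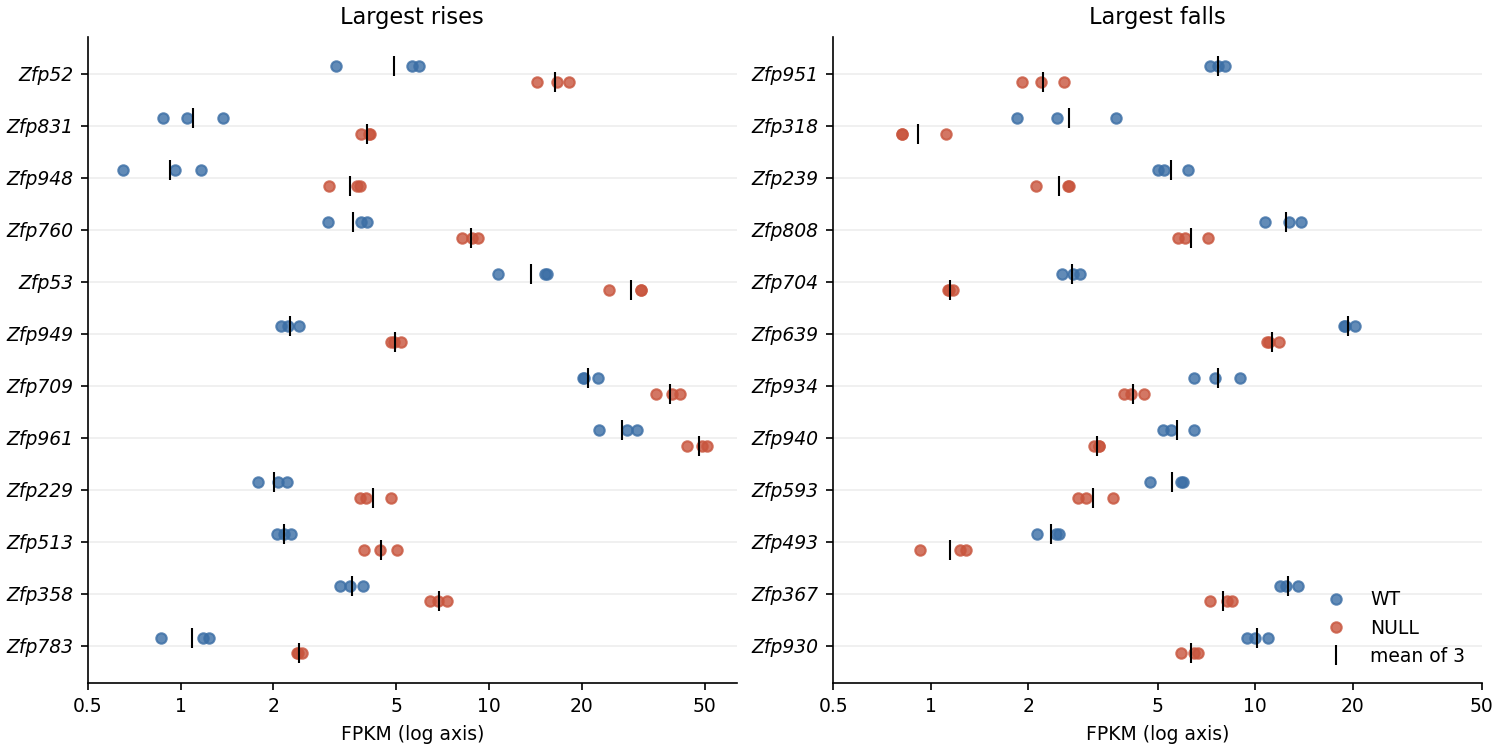
FPKM of the 12 members with the largest rises (left) and the 12 with the largest falls (right) among called members whose groups did not overlap. The axis is a log axis, with 1 point per library (WT blue, NULL red) and a tick at the mean of 3. By this choice the groups are apart in all 24, from Zfp52 (3.20 to 5.93 FPKM in WT, 14.3 to 18.2 in NULL) to Zfp951 (7.23 to 8.06 FPKM in WT, 1.91 to 2.58 in NULL).

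Members with a known role were read in 5 lists, where a gene may stand in more than 1. Among regulators of lymphoid and other blood cells, 9 of 11 were measured at 1 FPKM or more, and 5 were higher and 2 lower (55.6% and 22.2%, beside 23.3% and 42.0% of all genes). Zfp36, or tristetraprolin, binds AU-rich elements and hastens mRNA decay. It was at 7.38, 7.18 and 7.97 FPKM in WT and 13.6, 12.8 and 12.04 FPKM in NULL, and rose by 0.70 (SE 0.07, limma adjusted p = 0.000112). Zfp608, a large nuclear protein related to Zfp609, was at 6.84, 7.18 and 6.77 FPKM in WT and 11.5, 11.8 and 12.3 FPKM in NULL (0.70, SE 0.06). In both the groups were well separated and the call was kept under every rescaling.

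Zfp521, a cofactor of blood progenitors that counters EBF1, rose by 0.40 (SE 0.10, limma adjusted p = 0.00782). Zfp335 and Zfp217, which belong to chromatin-modifying assemblies, rose by 0.41 (SE 0.13) and 0.25 (SE 0.07), but each lost its call when WT A, WT B, NULL A or NULL C was left out, with adjusted p of up to 0.0694 and 0.0628 and log2 changes of 0.32 to 0.43 and 0.20 to 0.25 in those 4 cases. Zfp318, which mature B cells need to make IgD, fell from 2.44, 1.84 and 3.72 FPKM in WT to 0.818, 1.11 and 0.817 FPKM in NULL. The WT libraries were widely spread and the groups still did not overlap (log2 change −0.91, SE 0.18, limma adjusted p = 0.00271). The NULL mean of Zfp318 was 0.915 FPKM, so it passed the limit only through its WT values. Zfp281, which binds GC-rich promoter sequence, was lower (−0.25, SE 0.08, limma adjusted p = 0.0220) with values as deposited, but its sign turned with a common total without small RNA genes (0.09), and its call was lost without WT A (−0.20, adjusted p = 0.0802) or NULL A (−0.20, adjusted p = 0.0673). Zfp91 (−0.10, SE 0.08) and Zfp148 (−0.01, SE 0.09) were not called.

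Of 13 genes listed as acting on RNA, ribosomes and protein turnover, 12 were in the table under the listed symbols and 11 reached 1 FPKM. Of these, 1 was higher (Zfp36) and 4 were lower (Zfp106, Zfp207, Zfp318 and Zfp593). The lower share of 36.4% is near the 42.0% of all genes. Zfp593, a factor of large ribosomal subunit assembly, was at 4.73, 5.98 and 5.92 FPKM in WT and 3.65, 2.85 and 3.02 FPKM in NULL and fell by 0.65 (SE 0.11, limma adjusted p = 0.00122). Zfp106, an RNA-binding protein, fell by 0.55 (SE 0.06). Both lost the call with a common total (adjusted p = 0.111 and 0.457). Zfp207, a spindle protein that carries BUB3, was the most abundant member, at 142, 136 and 134 FPKM in WT and 105, 99.5 and 109 FPKM in NULL. Its change was −0.39 (SE 0.07, limma adjusted p = 0.00167) and turned to 0.09 after quantile normalization. Not called were Zfp598, the ubiquitin ligase of collided ribosomes (−0.08, SE 0.10), Zfp622, another subunit assembly factor (−0.15, SE 0.07), Zfp346 (−0.03, SE 0.07), Zfp326 (−0.26, SE 0.10), Zfp451 (−0.15, SE 0.08) and Zfp91.

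Of the members known to silence retroelements or hold imprints, 5 of 8 were measured, 0 were higher and 2 lower, a lower share near the 42.0% of all genes. Zfp932, a repressor of endogenous retroviruses, was at 25.9, 26.2 and 25.7 FPKM in WT and 16.4, 21.0 and 19.1 FPKM in NULL (log2 change −0.45, SE 0.09, limma adjusted p = 0.00304), and 22.1% of its windows are shared with other genes. Zfp568, the repressor of a placental Igf2 transcript, was lower by a smaller amount (−0.35, SE 0.07, limma adjusted p = 0.00268). Neither call held under all rescalings. Zfp809, which recognises murine leukaemia virus DNA (−0.14, SE 0.07), and the imprint factor Zfp445 (−0.18, SE 0.08) were not called, nor was Zfp708 (−0.24, SE 0.11), whose windows are all shared with another gene.

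Of the 14 genes listed as sequence-specific regulators without a KRAB box, 10 were found under the listed symbols and tested. Of these, 2 were higher and 3 lower (23.3% and 42.0% of all genes). The others were not in the table under the listed symbols, so they are missing by name and not by level. Zfp367, a factor active in dividing cells, fell by 0.61 (SE 0.08, limma adjusted p = 0.000321), Zfp131 was at −0.35 (SE 0.07) and Zfp281 is described above. Zfp367 lost its call with a common total (adjusted p = 0.275), and Zfp131 turned to 0.01 with a common total without small RNA genes. Zfp263, whose human counterpart is known to carry a KRAB box that the pattern used here did not find, rose by 0.23 (SE 0.06, limma adjusted p = 0.0102). Zfp219 rose by 0.34 (SE 0.11, limma adjusted p = 0.0284), and lost its call whenever a library other than WT C was left out (adjusted p of up to 0.0904, log2 changes of 0.24 to 0.36). Its WT mean was 0.948 FPKM, so it passed the limit only through its NULL values. The promoter-binding Zfp143 (−0.09, SE 0.06), Zfp410, an activator of Chd4 (0.03, SE 0.06), Zfp384 (0.13, SE 0.09), Zfp740 (0.02, SE 0.07) and Zfp148 were not called.

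Of the partners of chromatin complexes, 9 of 14 were measured, with 3 higher and 2 lower (23.3% and 42.0% of all genes). Zfp687 and Zfp592, which sit together in a complex with ZMYND8, rose by 0.31 (SE 0.07, limma adjusted p = 0.00570) and 0.23 (SE 0.06, limma adjusted p = 0.0143), the latter without a call once WT A was left out (0.22, adjusted p = 0.0513), and Zfp217 is given above. Zfp280c was at −0.44 (SE 0.09) and Zfp280d at −0.32 (SE 0.07), both called lower as deposited, and Zfp280d turned to 0.03 with a common total without small RNA genes. Zfp644, a partner of the G9a methyltransferase (−0.06, SE 0.07), Zfp518a (0.01, SE 0.09), Zfp609 (−0.02, SE 0.09) and Zfp292 (0.01, SE 0.07) were not called.

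A list of KRAB co-repressor and heterochromatin machinery was mostly lower in NULL with values as deposited. It also holds heterochromatin and DNA methylation genes beyond the TRIM28 assembly described above, such as Hells, Dnmt3b and Suv39h2. Of the 35 genes listed, 34 were tested, and 24 were lower and 1 higher, which is 70.6% lower against 42.0% of all genes, with a median log2 change of −0.45 against −0.13. These genes are more abundant than the members, with a median of 21.3 FPKM, and the other genes at 16 FPKM or more are closer to them, with 61.2% called lower and a median of −0.39. Trim28 was at 108, 113 and 122 FPKM in WT and 89.3, 68.3 and 80.5 FPKM in NULL (log2 change −0.52, SE 0.11, limma adjusted p = 0.00323), and its change was between −0.37 and −0.04 after rescaling. Setdb1 was at −0.34 (SE 0.06) and between −0.19 and 0.03 after rescaling.

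In this list Hells, Rbbp7, Cbx5, Cbx3, Dnmt3b, Suv39h2 and Atf7ip kept their calls under all 4 rescalings. Hells, a chromatin remodeller needed for DNA methylation, was at 74.9, 71.7 and 63.6 FPKM in WT and 22.6, 19.6 and 26.7 FPKM in NULL, and fell by 1.58 (SE 0.12, limma adjusted p = 3.52e-05). Rbbp7 fell by 1.19 (SE 0.08), the HP1 genes Cbx5 and Cbx3 by 1.13 (SE 0.10) and 0.93 (SE 0.08), and the methyltransferase genes Dnmt3b and Suv39h2 by 0.88 (SE 0.09) and 0.87 (SE 0.08). Atf7ip, the partner that stabilises SETDB1, was the 1 gene of the list called higher, at 7.52, 8.60 and 6.47 FPKM in WT and 13.5, 14.5 and 13.1 FPKM in NULL (0.79, SE 0.10, limma adjusted p = 0.000279). The count of lower genes was 19, 13, 6 and 9 after median-of-ratios, quantile, common-total and common-total rescaling without small RNA genes. In that order this was 55.9%, 38.2%, 17.6% and 26.5% of the list, against 32.7%, 33.1%, 10.1% and 20.6% of all genes.

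Members were also split by protein build. From translated GENCODE coding sequence, 257 members had a reading frame and 134 of those a KRAB box by pattern, which misses divergent boxes. Of the 134 with a box, 37 were higher and 22 lower (median 0.05), and of the 123 without one 33 and 24 (median 0.01). Both shares of calls, 44.0% and 46.3%, lie below the 65.3% of all genes. Without the 8 neighbours on chromosome 17, members higher and lower were 63 and 46. The number of fingers ran from 0 to 36, in Zfp142, with a median of 12 in members with a KRAB box and 7 in the others. By finger number, 2 of the 6 members with 0 fingers were higher and 2 lower, 6 and 10 of the 35 with 1 to 4, 18 and 10 of the 77 with 5 to 9, 26 and 17 of the 84 with 10 to 14, and 18 and 7 of the 55 with 15 or more, beside 23.3% higher and 42.0% lower over all genes. Across the 257 members Spearman's rho between finger number and log2 change was 0.15, and across these members the change had a rho of −0.19 with the mean level; the genes share libraries and are not independent. The SCAN box, found in 7 members, went with 2 higher calls (Zfp287 and Zfp263) and 1 lower (Zfp202).

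Sequence likeness limits some values. Windows were compared letter for letter and taken from the longest transcript of each member. Of the 259 members, 190 share no 100-base window with another gene, 26 share at least 10% and 6 at least 50% (Zfp97, Zfp960, Zfp433, Zfp781, Zfp935 and Zfp708), where reads may be split between copies. Among the 26, 4 were higher and 9 lower (15.4% and 34.6%), and without them the members higher and lower were 67 and 37 (28.8% and 15.9%). Over all genes these shares were 23.3% and 42.0%.

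The most abundant members after Zfp207 were Zfp706 (37.9 FPKM, log2 change −0.08, not called), Zfp961, Zfp330 (33.1 FPKM) and Zfp709, all given as means over the 6 libraries. Zfp330 was called lower by 0.20 (SE 0.06, limma adjusted p = 0.0264) with values as deposited, and its sign turned under 3 rescalings. Gab2 lies on chromosome 7, where 59 members lie, and 3 of them start within 20 Mb of it. Zfp710, 17.1 Mb before Gab2, rose from 2.20, 2.18 and 2.44 FPKM to 4.50, 3.53 and 3.72 FPKM (log2 change 0.58, SE 0.09, limma adjusted p = 0.000913). Zfp592, 16.1 Mb before it, is given above and Zfp143, 12.98 Mb after it, was not called. Over all of chromosome 7, 14 members were higher and 7 lower (23.7% and 11.9%, beside 23.3% and 42.0% of all genes).

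Other zinc-finger families are given beside the members. Of 32 Zbtb genes tested 11 were higher and 4 lower, of 16 Zscan and Zkscan genes 6 and 1, of 14 Zc3h genes 7 and 3, of 9 Klf genes 4 and 2, of 3 Ikzf genes 1 and 1, and of the tristetraprolin relatives Zfp36l1 and Zfp36l2 the first was higher (0.52, SE 0.07) and the second lower (−0.43, SE 0.07). Shares higher and lower were 34.4% and 12.5% for Zbtb, 37.5% and 6.25% for Zscan and Zkscan, 50% and 21.4% for Zc3h, and 44.4% and 22.2% for Klf. Over all genes they were 23.3% and 42.0%, and over the members 27.4% and 17.8%. A lower share below that of all genes was thus not particular to the Zfp genes. These counts are descriptions and were not compared by a test.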

How the data were processed

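Polyadenylated RNA of mouse bone marrow was sequenced as stranded paired-end libraries, per the labels' protocols, 3 Gab2 WT and 3 Gab2 NULL. The values are FPKM per gene symbol as deposited by the authors. Per the submitters' processing notes, the tools include Bowtie and Cufflinks and the builds mm10 and GRCm38, with no versions or roles. The members, gene lists and tests were chosen with earlier results of these data known.

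The table has 23848 rows, and for each of 256 repeated symbols the most abundant row was used. limma 3.58.1 (R 4.3.3) was fitted with a variance trend to log2(FPKM + 1) of the 9916 genes that averaged 1 FPKM or more. P-values are two-sided, adjusted by Benjamini-Hochberg over all genes tested, with a threshold of 0.05, and SE is limma's moderated standard error. The log2(FPKM + 1) scale understates changes of low genes. A count model does not suit FPKM and was not fitted, and depth is known only roughly. The fit was tested on simulated data with 200 changed genes. Positions, reading frames and transcripts came from GENCODE vM21 (255 members matched by name, 4 by an older name). A finger was counted as C, 2 to 4 residues, C, 12 residues, H, 3 to 5 residues, H, and a BTB box was not searched for. Promoters came from the RefSeq table. Named were up to 12 called members in each direction without overlap, role-list members, the 5 most abundant, the 3 on each side of the limit, those within 20 Mb of Gab2, the largest whose sign turned, and the leading machinery genes with Trim28 and Setdb1. Genes beside and between the neighbours on chromosome 17, and the other genes outside this rule, were named after their values were seen. Alternatives were pseudocounts of 0.1 and 0.5, other filters on low values, 4 rescalings, moderation settings, a replicate block, a threshold of 0.01, summed repeated rows and leaving out each library. Leaving out members with shared windows or the chromosome 17 neighbours was chosen after seeing the data.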

Additional observations from a re-analysis of the deposited data

How the results depend on the processing

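The 71 members called higher, 46 called lower and their median log2 change of 0.03 depended most on the scaling of the libraries. The counts of all calls, of higher and of lower calls were within 1.5 times of these under the other pseudocounts, filters, moderation settings and summed repeated rows. Median-of-ratios rescaling gave 26 lower and a median of 0.15. A common total gave 73 called, 6 lower and a median of 0.26. A common total without small RNA genes gave 181 called, 168 higher, 13 lower and a median of 0.34. Of all genes, 45.1% were higher and 20.6% lower in that setting, and the shares under the other rescalings are given above. At a threshold of 0.01 there were 47 higher. For the KRAB co-repressor and heterochromatin machinery (1 higher, 24 lower), median-of-ratios rescaling gave 2 higher, quantile normalization 5 higher and 13 lower, a common total 6 lower, and a common total without small RNA genes 8 higher and 9 lower. For the role lists together (9 higher, 11 lower), a common total gave 1 lower, and without small RNA genes 19 higher and 3 lower. The cause was not tested. Leaving out each library gave 97 to 120 members called, 57 to 72 higher, 36 to 48 lower and a median of 0.00 to 0.06, 1 to 2 machinery genes higher (2 without WT C) and 21 to 24 lower, and 5 to 9 role genes higher (5 without WT A) and 10 to 13 lower. Among the signs that turned with a common total without small RNA genes were those of Zfp131 (0.014), Zfp143 (0.27), Zfp148 (0.34), Zfp280d (0.026), Zfp281 (0.089), Zfp346 (0.29), Zfp598 (0.25), Zfp644 (0.30) and Zfp330 (0.17). With a common total Zfp330 (0.076) turned, and with quantile normalization Zfp207 (0.087), Zfp330 (0.12) and Zfp706 (0.28). These lists are not complete. Zfp91, Zfp143, Zfp148, Zfp644 and Zfp809 turned sign under all 4 rescalings. Zfp346, Zfp445, Zfp598 and Zfp609 turned under 3, Zfp451 and Zfp622 under 2, and Zfp326 and Zfp708 under 1. Gab2 kept its direction and call under every alternative. A replicate block on the letters gave 61 higher and 38 lower; the deviations of same-lettered libraries from their group means had r of 0.07, 0.36 and 0.13 for A, B and C, each above that with any other letter, which is a hint from the data, and the labels do not say that letters pair samples. The counts behind the FPKM are not known, so no counting interval is given.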
